A study of Homo sapiens with 4 samples.

Results

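A named list of 35 nuclear genes for aminoacyl-tRNA synthetases was followed through 2 lists of H3K14ac regions, 1 from shNIT2 cells and 1 from shNT cells. H3K14ac is an acetylation of a lysine in the tail of histone H3, and each list came from chromatin immunoprecipitation followed by sequencing (ChIP-seq) of MKN45, an established human gastric cancer cell line. Each hairpin condition, shNIT2 and the shNT control, gave 1 library with the H3K14ac antibody and 1 input library without antibody, 4 samples in all. NIT2 is an omega-amidase, which hydrolyses the alpha-keto acids formed from glutamine and asparagine. All cells were grown in serum-containing DMEM, and the labels name no drug. How many hairpin sequences were used, and whether the cells were a pool or a clone, is not stated in the labels. The series title places the study in fluorouracil resistance and oxidative phosphorylation.

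The list does not hold every synthetase gene; TARS3 and the aspartyl enzymes, for example, are not in it. All 35 members were found among 20037 protein-coding genes, and a gene counted as marked when a region overlapped its span extended by 1 kb on both sides. Of the 35, 19 encode cytosolic enzymes and 16 encode mitochondrial ones. The cytosolic group holds 17 names that end in 1, together with FARSA and FARSB, the 2 subunits of cytosolic phenylalanyl-tRNA synthetase. Every name of the mitochondrial group ends in 2. GARS1 and KARS1 were counted as cytosolic, although each gene supplies both compartments.

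Aminoacyl-tRNA synthetases join each amino acid to its tRNA, the step that fixes the meaning of a codon. Human cells run 2 translation systems, in the cytosol and in mitochondria, and most amino acids have a separate nuclear gene for the enzyme of each. The mitochondrial enzymes serve the few proteins encoded in mitochondrial DNA, all of them subunits of oxidative phosphorylation complexes. When amino acids run short, uncharged tRNA activates the kinase GCN2 (EIF2AK4), and the transcription factor ATF4 then induces many of the cytosolic synthetase genes. H3K14ac is a mark of active promoters and lies on the nucleosomes beside them.

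The 2 lists differed in depth, which bears on every count below. The shNIT2 list held 28187 regions with a median pileup of 22 fragments at the summit, against 39876 regions with a median pileup of 6 fragments in the shNT list. The lowest background that the peak caller used was 2.48 fragments in shNIT2 and 0.278 fragments in shNT, a ratio of 8.93. Reads and input values were not analysed here, so a missing region means only that no region was listed at that depth. There was 1 library per condition, so no difference between shNIT2 and shNT had a replicate check and none was tested. Epithelial genes were marked in 8 of 8 cases in shNIT2 and in 6 of 8 in shNT, against 47.0% and 28.5% of all genes. Their strongest folds ran from 7.77 (GRHL2) to 24.6 (KRT8) in shNIT2. The spans of KRT8 and KRT18 overlap, so the same region can mark both. Markers of other cell types were marked in 5 of 8 cases (62.5%) in shNIT2 and in 3 of 8 (37.5%) in shNT, also above the shares of all genes. None of them had a fold above 5.01 (NEFL) in shNIT2, but CD3E had 4 regions there, the strongest with 44 fragments. COL1A1 and ALB had no region in either list. NIT2 transcript levels were not analysed here, so the knockdown itself could not be checked.

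The upstream sequences of 8 places are shown, at genes that the results single out. AARS1 and WARS1 had the highest folds, AARS1 and IARS1 share a rare motif, and CARS1 and the bases between HARS1 and HARS2 carry another. YARS2 had the highest pileup, and NARS1 and MARS2 had no region in either list. Of the printed stretches, only that of YARS2 was touched by a shNIT2 region. The sequences are from RefSeq (GRCh38.p14, the hg38 chromosomes), run 5′ to 3′ on the gene's own strand and end at the base before the annotated start; for the HARS pair the strand is that of HARS2. Capitals mark matches on either strand to the CCAAT box, to the GC box GGGCGG, to the ETS core CCGGAAGT, to the NRF1 core CGCATGCG and to the amino acid response letters TTGCATCA. The places are chr16:70289507-70289756 (minus) for AARS1, chr14:100376328-100376484 (minus) for WARS1, chr9:92293698-92293947 (minus) for IARS1 and chr11:3057424-3057673 (minus) for CARS1. They are chr5:140691371-140691454 (plus) for the HARS pair, chr12:32755898-32756147 (minus) for YARS2, chr18:57621837-57622086 (minus) for NARS1 and chr2:197705119-197705368 (plus) for MARS2. WARS1 is given for 157 bases, since another gene lies beyond them.
AARS1: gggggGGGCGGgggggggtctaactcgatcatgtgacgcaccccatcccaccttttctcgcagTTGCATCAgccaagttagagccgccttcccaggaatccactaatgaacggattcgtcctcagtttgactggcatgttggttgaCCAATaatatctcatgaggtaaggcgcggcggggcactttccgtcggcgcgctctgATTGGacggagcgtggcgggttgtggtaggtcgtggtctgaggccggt
WARS1: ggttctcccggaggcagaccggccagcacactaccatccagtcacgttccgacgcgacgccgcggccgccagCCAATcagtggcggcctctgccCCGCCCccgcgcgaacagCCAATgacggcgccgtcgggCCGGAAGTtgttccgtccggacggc
IARS1: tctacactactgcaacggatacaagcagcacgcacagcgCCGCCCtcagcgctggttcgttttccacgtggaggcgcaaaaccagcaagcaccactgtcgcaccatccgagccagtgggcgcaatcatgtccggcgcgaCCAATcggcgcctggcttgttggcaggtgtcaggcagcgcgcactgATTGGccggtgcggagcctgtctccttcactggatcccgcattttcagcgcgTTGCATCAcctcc
CARS1: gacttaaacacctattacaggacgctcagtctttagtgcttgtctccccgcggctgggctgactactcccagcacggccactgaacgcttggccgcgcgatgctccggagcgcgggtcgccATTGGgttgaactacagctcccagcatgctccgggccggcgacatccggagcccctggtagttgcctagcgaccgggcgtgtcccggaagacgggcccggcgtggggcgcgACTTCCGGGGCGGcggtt
HARS1 to HARS2: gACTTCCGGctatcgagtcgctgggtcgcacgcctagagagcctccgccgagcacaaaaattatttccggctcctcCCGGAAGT
YARS2: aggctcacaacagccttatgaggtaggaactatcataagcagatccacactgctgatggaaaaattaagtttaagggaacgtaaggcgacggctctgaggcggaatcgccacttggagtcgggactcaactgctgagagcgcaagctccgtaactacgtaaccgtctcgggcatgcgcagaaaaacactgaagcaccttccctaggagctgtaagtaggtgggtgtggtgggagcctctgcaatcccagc
NARS1: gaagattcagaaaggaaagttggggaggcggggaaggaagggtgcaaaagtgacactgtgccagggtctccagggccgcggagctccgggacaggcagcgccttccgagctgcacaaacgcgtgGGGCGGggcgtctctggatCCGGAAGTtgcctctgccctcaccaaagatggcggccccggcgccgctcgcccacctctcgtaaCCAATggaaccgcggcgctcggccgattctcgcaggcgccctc
MARS2: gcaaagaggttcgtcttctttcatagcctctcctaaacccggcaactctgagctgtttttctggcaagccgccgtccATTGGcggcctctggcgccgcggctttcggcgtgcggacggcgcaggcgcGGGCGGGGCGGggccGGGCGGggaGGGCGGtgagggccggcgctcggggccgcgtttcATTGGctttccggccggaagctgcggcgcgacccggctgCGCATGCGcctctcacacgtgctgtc

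Synthetase genes were marked widely in the shNIT2 list. A region was present at 29 of 35 members (82.9%) in shNIT2, where 47.0% of all protein-coding genes had one. In shNT, 15 of 35 members (42.9%) had a region, where 28.5% of all genes had one. Both lists marked 12 members (34.3%; 19.6% of all genes). The shNIT2 list alone marked 17 members (48.6%; 27.4% of all genes) and the shNT list alone marked 3 (8.57%; 8.90% of all genes). Neither list marked 3 members, which is 8.57% against 44.1% of all genes. The last share and the shNIT2 share lay farthest from the background, and the share marked in shNT alone lay at it.

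By compartment, 17 of 19 cytosolic members (89.5%) and 12 of 16 mitochondrial members (75%) had a region in shNIT2. In shNT the counts were 9 of 19 cytosolic (47.4%) and 6 of 16 mitochondrial members (37.5%). Counting only regions with a −log10 q of at least 5, where q is the authors' adjusted p of a peak, left 16 of 19 cytosolic and 7 of 16 mitochondrial members marked in shNIT2, against 36.0% of all genes. In shNT it left 3 of 19 cytosolic members and 1 of 16 mitochondrial members, against 5.93% of all genes. A −log10 q of at least 10 was reached in shNIT2 by 10 of 19 cytosolic members (52.6%) and 3 of 16 mitochondrial members (18.8%), against 22.7% of all genes. The cytosolic 10 were AARS1, CARS1, GARS1, LARS1, MARS1, SARS1, TARS1, VARS1, WARS1 and YARS1, and the mitochondrial 3 were CARS2, EARS2 and YARS2.

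The fold of a region is the authors' ratio of the pileup at its summit to the local background, with 1 added to each. The lowest background was 0.278 fragments in shNT and 2.48 fragments in shNIT2, so the added 1 lowers folds more in shNT. Folds therefore rank regions within a list, and their sizes are not comparable between the lists. Among marked members in shNIT2, the fold of the strongest region had a median of 5.84 (3.73 to 12.2, n = 17) in cytosolic genes and 4.06 (2.69 to 7.54, n = 12) in mitochondrial genes, and the median over all marked genes was 5.17. The median −log10 q was 16.8 in cytosolic genes and 5.74 in mitochondrial genes, with 9.59 over all marked genes. The cytosolic median thus lay above that of all marked genes and the mitochondrial median below it on both measures. The ranges overlapped, and members of both groups lay on either side of the median of all marked genes. In shNT the median fold was 5.35 (n = 9) in cytosolic genes and 4.09 (n = 6) in mitochondrial genes, with 4.63 over all marked genes.

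**Figure D1:**
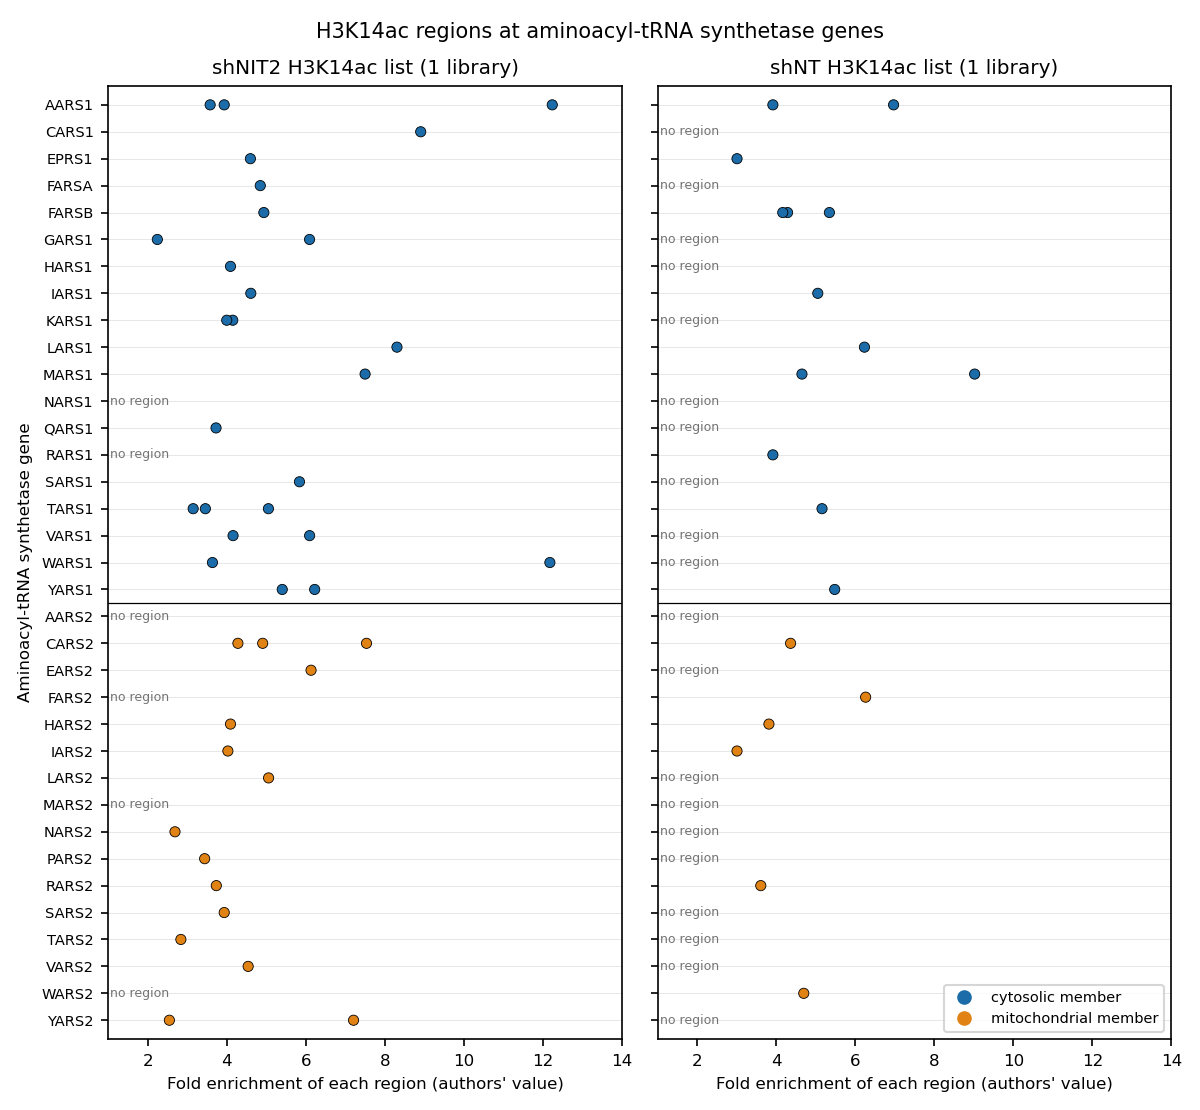
Each point is 1 H3K14ac region at a synthetase gene, at the authors' fold enrichment on the horizontal axis, with shNIT2 on the left, shNT on the right and 1 library each; cytosolic genes stand above the line in blue and mitochondrial genes below it in orange. AARS1 at 12.2 and WARS1 at 12.2 stand apart in shNIT2, and 20 of 35 rows are empty in shNT against 6 in shNIT2.

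Over all genes, longer genes were marked more often in both lists, so the members were also set beside genes of like length. The median length was 32.8 kb for cytosolic and 28.4 kb for mitochondrial members, and 24.1 kb for all genes. Among genes under 10 kb, 4 of 5 members and 29.5% of all genes were marked in shNIT2. From 10 to 20 kb the counts were 6 of 7 members and 44% of all genes, and from 20 to 50 kb they were 9 of 11 members and 52.3%. From 50 to 100 kb, 8 of 8 members and 57.3% of all genes were marked. Over 100 kb the members were all mitochondrial, and 2 of 4 (LARS2 and NARS2) were marked, against 63.2% of all genes. The members' share with any region in shNIT2 was thus above that of genes of like length in every bin but the longest. For a −log10 q of at least 10 this did not hold in each bin. From 20 to 50 kb, 8 of 11 members (7 of 9 cytosolic) reached it in shNIT2, against 23.9% of all genes. It was 1 of 5 members under 10 kb (14.4%) and 1 of 7 from 10 to 20 kb (19.9%). From 50 to 100 kb it was 3 of 8 (28.3%), and over 100 kb 0 of 4 (33.2%). In shNT, 1 of 5 members under 10 kb was marked (6.99% of all genes), 0 of 7 from 10 to 20 kb (15%) and 5 of 11 from 20 to 50 kb (26.4%). From 50 to 100 kb it was 7 of 8 members (43.1% of all genes), and over 100 kb 2 of 4 (68.6%).

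**Figure D2:**
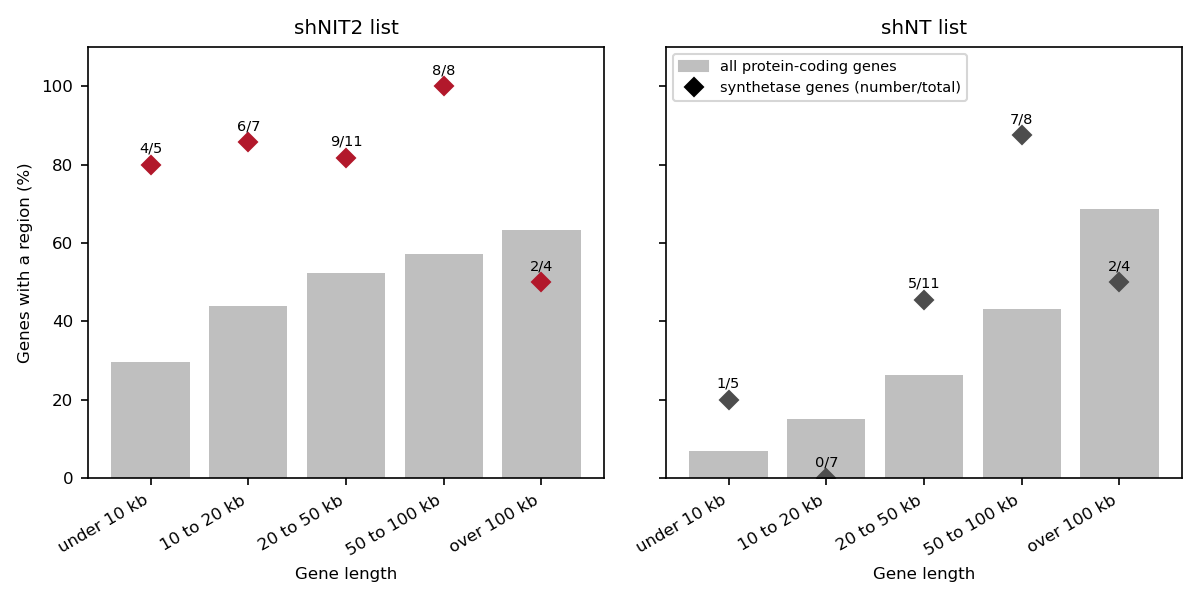
Bars give the percentage of all protein-coding genes with a region and diamonds that of synthetase genes (number over total), by gene length, in shNIT2 on the left and shNT on the right. In shNIT2 the members lie above the bars up to 100 kb (8 of 8 from 50 to 100 kb against 57.3%) and below the bar over 100 kb (2 of 4 against 63.2%).

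Among the cytosolic enzymes that work outside the multisynthetase complex, 11 of 12 genes (91.7%; 47.0% of all genes) were marked in shNIT2 and 4 of 12 (33.3%; 28.5% of all genes) in shNT. Alanyl-tRNA synthetase, AARS1, had the highest fold of all members. Its strongest shNIT2 region, chr16:70287958-70289422, had a fold of 12.2, a −log10 q of 41.6 and a pileup of 55 fragments, and its fold lay at the 96.6th percentile of the shNIT2 list. The shNT list had a region inside that one, chr16:70288529-70289100, with a fold of 6.97, a −log10 q of 7.3 and a pileup of 8 fragments, at the 79.8th percentile of its own list. Among the 30 members with an annotated start at hand, AARS1 was the 1 with a summit within 1 kb of it in both lists, 359 bases after the start in shNIT2 and 738 bases after it in shNT. AARS1 also had 2 weaker shNIT2 regions, with folds of 3.94 before the start and 3.58 beyond the other gene end, where the start of EXOSC6 lay 765 bp from the summit.

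WARS1, the cytosolic tryptophanyl-tRNA synthetase and a gene known to respond to interferon-gamma, was next. Its strongest shNIT2 region, chr14:100375698-100376271, had a fold of 12.2, the highest −log10 q of all members (43.5) and a pileup of 58 fragments, with its summit 334 bases after the start. The start of WDR25 lay 492 bp from the same summit. The shNT list had no region at WARS1, and its nearest one lay 21413 bp from the gene.

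CARS1, the cysteinyl-tRNA synthetase, had 1 shNIT2 region, chr11:3056682-3057392, with a fold of 8.91, a −log10 q of 19.5 and a pileup of 30 fragments. The nearest shNT region lay 70635 bp away. YARS1, the tyrosyl-tRNA synthetase, had its strongest shNIT2 region at chr1:32816165-32817295, with a fold of 6.23, a −log10 q of 16.8 and a pileup of 37 fragments, and a second with a fold of 5.41. Starts of S100PBP lay within 1 kb of both summits. The shNT region of YARS1 lay 14625 bp from the nearer gene end, with a fold of 5.48 and a pileup of 6 fragments. These regions of YARS1 in the 2 lists did not overlap.

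TARS1, the threonyl-tRNA synthetase, had 3 shNIT2 regions with folds of 5.06, 3.46 and 3.15, and 1 shNT region with a fold of 5.16 that lay 9985 bases after the start. FARSB, the beta subunit of phenylalanyl-tRNA synthetase, had overlapping regions in both lists just over 1 kb after its start. The fold was 4.94 in shNIT2 (21 fragments, summit at 1147 bases) and 5.35 in shNT (6 fragments, summit at 1014 bases), so the 2 summits lay close to each other. The alpha subunit, FARSA, had a shNIT2 region with a fold of 4.85 and its summit 208 bases after the start, and no shNT region.

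GARS1 supplies glycyl-tRNA synthetase to both compartments. Its main shNIT2 region had a fold of 6.1, a −log10 q of 25.1 and a pileup of 58 fragments, and ran across the start. SARS1, for serine, had a fold of 5.84 with a pileup of 57 fragments, and VARS1, for valine, had a fold of 6.1 with 44 fragments. None of GARS1, SARS1 and VARS1 had a shNT region. The local background differed among members. It was 3.50 times the lowest value of the list at the main region of GARS1 and 3.60 times at SARS1, against a median of 1.79 over the 40 member regions and 1.72 over the whole list.

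The multisynthetase complex holds several cytosolic enzymes on shared scaffold proteins, and 7 of its enzymes were members: EPRS1, IARS1, KARS1, LARS1, MARS1, QARS1 and RARS1. This grouping was made after the values were seen. In shNIT2, 6 of the 7 (85.7%) were marked, against 47.0% of all genes, with folds of 3.73 to 8.31 and a median of 4.6. A −log10 q of 10 was reached by 2 of the 7 (28.6%), a share near the 22.7% of all genes. Outside the complex, 8 of 12 cytosolic members (66.7%) reached it, with a median fold of 6.1 over those marked. In shNT, 5 of the 7 complex enzymes (71.4%) were marked, against 28.5% of all genes. EPRS1, IARS1 and LARS1 were among these, with lengths from 50 to 100 kb, where 43.1% of all genes were marked in shNT. The shNT marks of EPRS1 and RARS1 rested on 3 and 4 fragments, and only those of LARS1 and MARS1 reached a −log10 q of 5.

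LARS1, the leucyl-tRNA synthetase and a leucine sensor upstream of mTORC1, was the complex member with the highest fold in shNIT2. Its region, chr5:146181990-146182466, had a fold of 8.31, a −log10 q of 21.9 and a pileup of 37 fragments in shNIT2. The shNT region lay inside it, with a fold of 6.23, a −log10 q of 6.02 and a pileup of 7 fragments, and this was the 1 member region in which the overlap covered at least 50% of both regions. No start with strand was at hand for LARS1, but its summits lay 389 bp (shNIT2) and 486 bp (shNT) from the same end of the gene. MARS1, the methionyl-tRNA synthetase, had a fold of 7.5 and a pileup of 40 fragments at chr12:57488139-57489310 in shNIT2, with the summit 358 bases after the start. In shNT its strongest region had a fold of 9.02, a −log10 q of 11.1 and a pileup of 12 fragments, the highest shNT values of all members, with the summit 4478 bases after the start. Both lists thus marked MARS1 strongly, at places that did not overlap.

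IARS1, for isoleucine, had a fold of 4.61 in shNIT2 (24 fragments, summit 378 bases after the start) and 5.05 in shNT (6 fragments, summit 77573 bases after the start). EPRS1, the bifunctional glutamyl-prolyl-tRNA synthetase, had a fold of 4.6 in shNIT2 (15 fragments) in a region that lay wholly outside the gene, with its summit 547 bases before the start. Its shNT region had a fold of 3.01 with 3 fragments, at the 1.06th percentile of the shNT list. IARS2 had a shNT region with those same weakest values, so at both genes the shNT mark rested on 3 fragments. RARS1, for arginine, was marked in shNT alone, with a fold of 3.91 and a pileup of 4 fragments 18129 bases after the start, and the nearest shNIT2 region lay 59464 bp from the gene.

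Among the mitochondrial enzymes, CARS2, for cysteine, had the highest fold. Its strongest shNIT2 region, chr13:110705278-110706053, had a fold of 7.54, a −log10 q of 28.4 and a pileup of 54 fragments, 312 bases after the nearer of its annotated starts. It had 2 more shNIT2 regions, upstream of its annotated starts but inside the gene span, with folds of 4.91 and 4.28, and starts of ING1 lay within 1 kb of each. The shNT region of CARS2 overlapped the weaker of these, with a fold of 4.36 and a pileup of 6 fragments. The strongest CARS2 region had therefore no counterpart in the shNT list.

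YARS2, the mitochondrial tyrosyl-tRNA synthetase, came next. Its main shNIT2 region, chr12:32755382-32756260, ran across the start, with a fold of 7.21, a −log10 q of 33 and a pileup of 66 fragments, the highest pileup of all members. The local background there was 3.345 times the lowest value of the list. The nearest shNT region lay 89463 bp away. EARS2, which charges glutamate, had a fold of 6.13, a −log10 q of 10.2 and a pileup of 21 fragments in shNIT2, but its region, chr16:23557839-23558437, lay wholly outside the gene, and the start of UBFD1 lay within 1 kb of the summit. LARS2, for leucine, had a fold of 5.06 with 23 fragments at chr3:45388695-45388984, and VARS2, for valine, a fold of 4.54 with 19 fragments. Neither had a shNT region.

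The remaining marked mitochondrial genes had folds of 2.69 to 4.1 in shNIT2. RARS2, for arginine, had a fold of 3.74 in shNIT2 (12 fragments, summit 456 bases after the start) and 3.61 in shNT (4 fragments, summit 33042 bases after the start). IARS2, for isoleucine, was the 1 marked mitochondrial member whose shNIT2 region lay deep in the gene, 28794 bases after the start, with a fold of 4.03. NARS2 had the lowest strongest fold of all marked members, 2.69, and TARS2 the next, 2.84. TARS2 had a pileup of 29 fragments over a local background 3.86 times the lowest value of the list. FARS2, for phenylalanine, and WARS2, for tryptophan, both over 100 kb long, were marked in shNT alone. Their shNT regions had a fold of 6.26 (7 fragments) 428957 bases after the start at FARS2 and of 4.7 (5 fragments) 81374 bases after the start at WARS2.

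HARS1 and HARS2, the cytosolic and mitochondrial histidyl-tRNA synthetases, lie head to head with 84 bases between their starts, the bases printed above. A single shNIT2 region, chr5:140691718-140692300, marked both, with a fold of 4.1, a −log10 q of 6.91 and a pileup of 24 fragments. It lay inside HARS2, with its summit 365 bases after the start of HARS2 and 450 bases before that of HARS1, so HARS1 was marked through its 1 kb margin only. The shNT list had a region 1672 bases after the start of HARS2, with a fold of 3.81 and a pileup of 4 fragments, which lay 1495 bp from HARS1 and so did not mark it.

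For 13 amino acids, 1 cytosolic and 1 mitochondrial member carry the same name but for the final digit. By fold, the strongest shNIT2 region was higher in the cytosolic gene for 9 of the 13 and in the mitochondrial gene for 3, and the histidine pair shared its region. By the −log10 q of the same regions it was 8 and 4, since CARS2 (28.4) exceeded CARS1 (19.5). Where both partners were marked, by regions of their own or in common, 6 of 8 had the higher fold in the cytosolic gene, for cysteine, isoleucine, leucine, serine, threonine and valine, and 1 in the mitochondrial gene, for tyrosine. In alanine, methionine and tryptophan the cytosolic gene had folds of 12.2, 7.5 and 12.2, and the mitochondrial gene had no region. In asparagine and arginine it was the reverse, with mitochondrial folds of 2.69 and 3.74 and no region at the cytosolic gene. The gap was narrow for isoleucine, with 4.61 for IARS1 and 4.03 for IARS2. Phenylalanine, glutamate and proline also have members in both compartments, under other names. FARSA and FARSB had folds of 4.85 and 4.94, and FARS2 had no shNIT2 region. EPRS1 had a fold of 4.6, against 6.13 for EARS2 (glutamate) and 3.44 for PARS2 (proline). These pairs come from 1 library, and the differences were not tested.

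**Figure D3:**
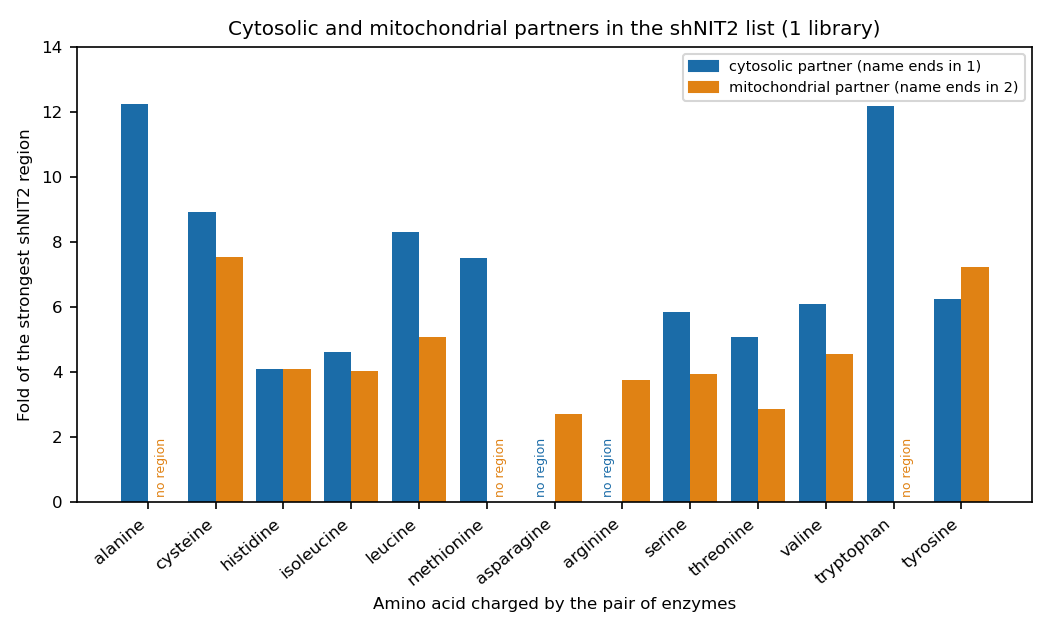
Bars give the authors' fold of the strongest shNIT2 region at the cytosolic (blue, left) and mitochondrial (orange, right) gene of the 13 amino acids whose genes pair by name, in 1 library. The cytosolic bar is the taller for 9 amino acids, the mitochondrial one for asparagine, arginine and tyrosine, and the histidine bars are 1 shared region at 4.1.

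Most shNIT2 regions at synthetase genes lay near an annotated start, and most shNT regions did not. An annotated start with strand was at hand for 30 of the 35 members. A summit lay within 1 kb of a start for 23 of 30 members (76.7%) in shNIT2, 13 of 16 cytosolic and 10 of 14 mitochondrial, against 38.0% of 15843 genes. In shNT it was 1 of 30 members (3.33%), AARS1, against 5.59% of genes. Counted by gene and region, so that the HARS region enters once for each gene, 27 of 35 shNIT2 summits (77.1%) lay within 1 kb of a start of their own gene, against 43.5% of 17631 such pairs over all genes chosen by the same window. In shNT it was 1 of 17 (5.88%), against 10.9% of 8553 pairs over all genes. The larger share in shNIT2 than in shNT was thus seen over all genes too.

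Within that kilobase the shNIT2 summits lay mostly after the start. Member summits were measured from a start of their own gene, and the HARS region entered once for each gene. Over the whole list each region entered once, so the counts follow unlike rules. For members there were 20 after and 7 before the start, and over the whole list 72.4% were after. Among the 7, the summits at HARS1, EARS2, SARS2 and KARS1 lay nearer a start of another gene. The distance after the start had a median of 362 bases (208 to 885), against 339 bases over the whole list. From 250 to 499 bases after the start there were 13 of the 27 member summits, the bin that also held 41.4% of all start-near summits. No member summit fell between 250 bases before and 50 bases after a start, where 4.85% of all start-near summits did. Of the 20 regions with a summit after the start, 18 also began after it, at a median of 123 bases (31 to 534), and the other 2, at GARS1 and YARS2, ran across it.

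**Figure D4:**
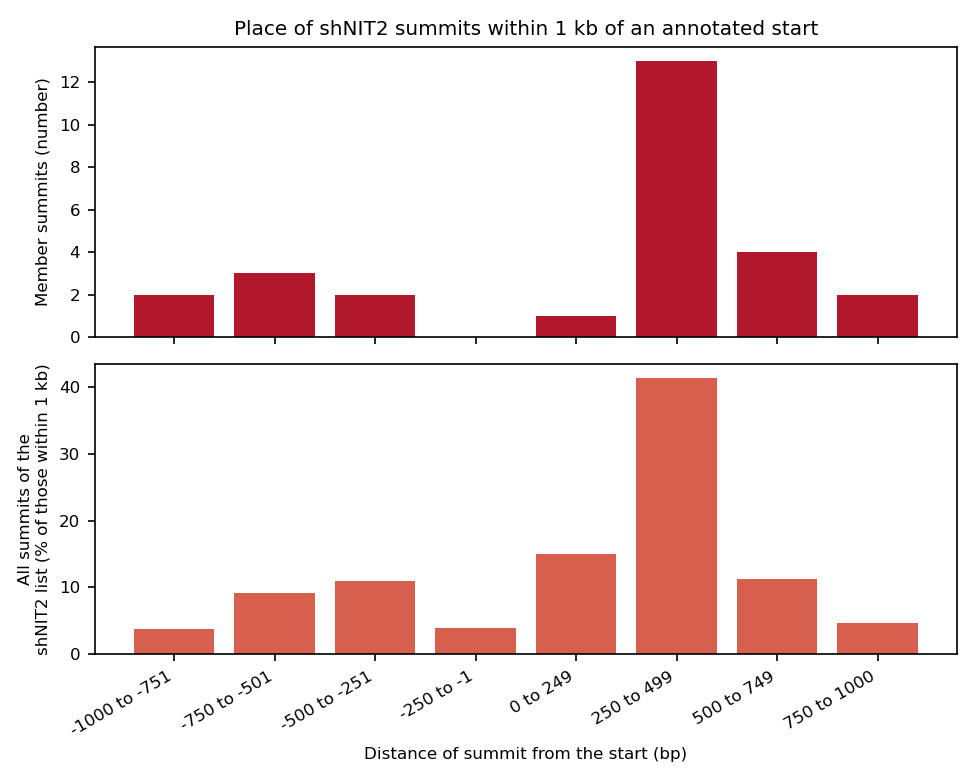
Counts of summits at synthetase genes (top) and the percentage of all start-near summits (bottom) by distance from an annotated start, for the shNIT2 library. Distances are in bases, and positive ones run with transcription. In the top panel the start is the nearest of the gene's own, and the HARS region enters once for each gene. In the bottom panel each region enters once. The bin from 250 to 499 bases holds 13 of 27 member summits and 41.4% of all, and the bin just before the start holds 0 of 27 and 3.86%.

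At AARS1, KARS1 and TARS1 a region stood on each side of the start. The unmarked gap was 550 bp at AARS1, 689 bp at KARS1 and 809 bp at TARS1. KARS1, the lysyl-tRNA synthetase of both compartments, had folds of 4.15 after and 4 before the start, and the start of TERF2IP lay within 1 kb of both summits. The 250 bases before the first listed start, such as those printed above, were touched by a shNIT2 region in 2 of 30 members, GARS1 and YARS2. A window that also took in 50 bases after it was touched in 3, with CARS1. The bases printed for AARS1 thus lie in the gap between 2 regions. Flanked starts and touched windows were not counted over all genes, so neither is shown to be particular to the members. In all, 13 of the 40 shNIT2 member regions had another gene's start within 1 kb of the summit. At EPRS1, HARS1, EARS2 and SARS2 the region lay wholly outside the gene. The like shares over all genes were not counted, so neither is shown to be particular to the members. At some genes a neighbour's start thus lay near the region. Which gene such a region belongs to cannot be told apart here.

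**Figure D5:**
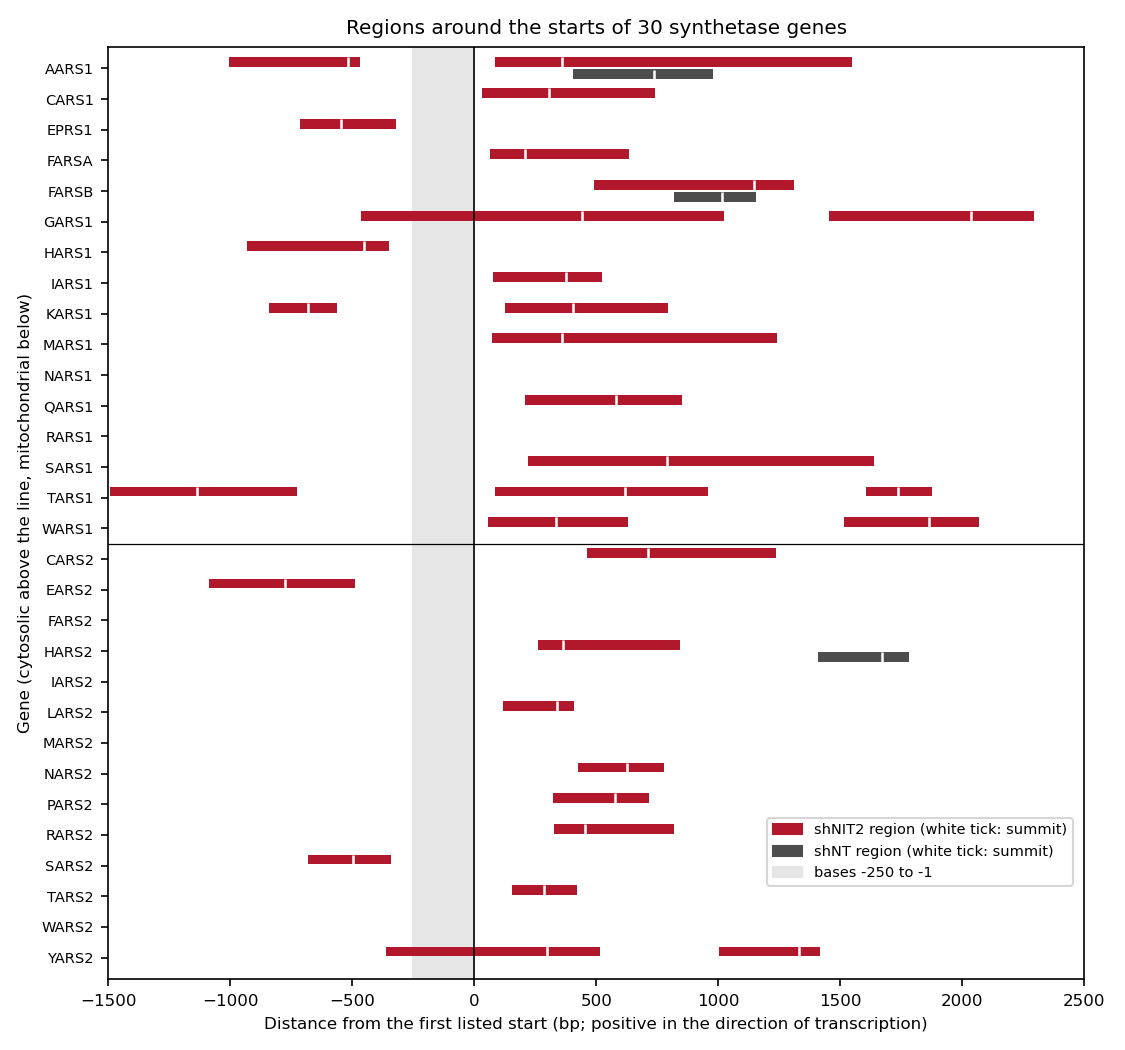
Bars show shNIT2 regions (red) and shNT regions (grey) around the first listed start of 30 synthetase genes, in bases along the direction of transcription, with the summit as a white tick and the 250 bases before the start shaded. Most red bars begin just right of the start (median 123 bases over 18 regions, measured from the nearest start), those of GARS1 and YARS2 cross it, and the grey bars in view are at AARS1, FARSB and HARS2.

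Of the 12 members with a region in both lists, 4 (33.3%), namely AARS1, FARSB, LARS1 and CARS2, had regions that overlapped, against 43.4% of the 3926 genes marked in both. In each of these 4 the shNT region lay wholly within the shNIT2 region. That is 4 of the 40 shNIT2 member regions (10%; 11.7% over the whole list) and 4 of the 19 shNT member regions (21.1%; 9.06% over the whole list). At the other members of the 12, EPRS1, IARS1, MARS1, TARS1, YARS1, HARS2, IARS2 and RARS2, the marks lay apart.

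Dividing each member's shNIT2 pileup by 8.93, the ratio of the lists' lowest backgrounds, gave a median of 2.69 fragments (1.34 to 7.39). For 16 of the 29 marked members (55.2%) the scaled value was under 3 fragments, the lowest pileup in the shNT list, as it was for 55.1% of all marked genes. AARS1 had 6.16 scaled fragments in shNIT2, against 8 fragments in shNT. FARSB, scaled to 2.35 fragments, had 6 fragments in its overlapping shNT region. With the ratio of the median pileups, 3.67, as the scale, 0 of 29 members and 0.935% of all marked genes were under 3 fragments. What depth contributes to the regions found in shNIT2 alone turned on the scale and was not tested.

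NARS1, the cytosolic asparaginyl-tRNA synthetase, AARS2, the mitochondrial alanyl-tRNA synthetase, and MARS2, the mitochondrial methionyl-tRNA synthetase, had no region in either list. The nearest shNIT2 region lay 14006 bp from NARS1, 41227 bp from AARS2 and 63904 bp from MARS2. The nearest shNT region lay 31435 bp, 40430 bp and 11462 bp from them, in the same order. RARS1, FARS2 and WARS2 also lacked a shNIT2 region, with the nearest at 59464, 132155 and 28178 bp. Of these 6, all but AARS2 have upstream letters at hand. In the 250 bases before the start, MARS2 had 70.4% GC and 34 CpG, FARS2 70.8% and 29, NARS1 66.4% and 24, RARS1 63.2% and 19, and WARS2 58% and 13. The medians over all genes were 62.4% GC and 17 CpG, so WARS2 lay below both and the other 4 above both.

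The upstream letters of the members were searched on both strands for 5 motifs in the 250 bases before each start. CCGGAAGT, the core bound by ETS factors, was in 8 of 30 members (26.7%) and 5.82% of genes. The 8 were CARS1, HARS1, NARS1, TARS1, WARS1, EARS2, HARS2 and PARS2, and HARS1 and HARS2 hold the same 2 matches, 1 at each end of the bases between them. TTGCATCA, letters of the amino acid response element to which ATF4 binds, was in AARS1 and IARS1, 2 of 30 members (6.67%) and 0.802% of genes. It began at base -187 relative to the start of AARS1 and at base -13 relative to that of IARS1. CCAAT was in 16 of 30 members (53.3%; 40.2% of genes), GGGCGG in 23 (76.7%; 62.1% of genes), and CGCATGCG, a core of NRF1 sites, in 1, MARS2 (3.33%; 2.91% of genes).

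Of the 8 members with CCGGAAGT, 7 had a shNIT2 region, all but NARS1, against 18 of the 22 without it. With CCAAT the count was 13 of 16 members, against 12 of 14 without it, and with GGGCGG it was 19 of 23, against 6 of 7. MARS2, the 1 member with CGCATGCG, had no region in either list. YARS2, with the highest pileup, holds none of the 5 motifs in the 250 bases printed. AARS1 and IARS1, which share TTGCATCA, had shNIT2 folds of 12.2 and 4.61. Both were also marked in shNT, but at IARS1 the shNT summit lay 77573 bases after the start. With CCGGAAGT, 2 of 8 members had a shNT region, against 11 of 22 without it. With CCAAT the shNT count was 7 of 16, against 6 of 14, and with GGGCGG it was 9 of 23, against 4 of 7.

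Beyond the 35 members, 20 other genes of tRNA charging were read in the same way. In shNIT2, 13 of 20 (65%) were marked, against 47.0% of all genes. In shNT, 7 of 20 (35%) were marked, and both lists marked 4 (20%), AIMP2, TRNT1, XPOT and EEF1A1, shares near the 28.5% and 19.6% of all genes. TARS3, a further threonyl-tRNA synthetase, had a fold of 4.07 in shNIT2 and no region in shNT. EEF1A1, the elongation factor that delivers charged tRNA to the ribosome, had a fold of 27.7 with 168 fragments in shNIT2 and 6.94 with 9 fragments in shNT. XPOT, the tRNA exporter, had 13.7 with 113 fragments in shNIT2 and 6.44 with 10 fragments in shNT. ATF4 had a fold of 13.5 with 46 fragments in shNIT2 and no region in shNT. All 3 of these shNIT2 folds exceeded those of the 35 members.

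The scaffold proteins of the multisynthetase complex were marked weakly in shNIT2, with folds of 2.75 at AIMP1, 3.62 at AIMP2 and 3.84 at EEF1E1. AIMP2 had a fold of 7.79 (10 fragments) in shNT. In mitochondria glutaminyl-tRNA is made by amidation of a glutamate-charged tRNA, by an enzyme of the subunits GATB, GATC and QRSL1. GATC (3.72) and QRSL1 (3.58) were marked in shNIT2 alone, and GATB in shNT alone (3.13, with 3 fragments). MTFMT, which formylates the mitochondrial initiator tRNA, had a fold of 3.39 in shNIT2. TRNT1, which adds the CCA end to tRNAs, had a fold of 6.07 in shNIT2 and 2.99 in shNT. EIF2AK4, TUFM, SEPSECS and PSTK had no region in either list.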

How the data were processed

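H3K14ac ChIP-seq and input libraries from shNIT2 and shNT MKN45 cells made up the series, 1 of each per condition, grouped by the labels; only the 2 deposited region lists were analysed. Per the submitters' processing notes, the tools were MACS2 2.1.1 and Bowtie2 2.2.6, with cutadapt 1.9.1, Trimmomatic 0.35, FastQC and ChIPseeker, and the build was hg38; use of the inputs as controls is not given there. A score, a fold (ratio), −log10 p and q values and a summit stand beside each region in the deposited lists, all the authors' own; the smallest −log10 q was 1.30 in both, a q threshold of 0.05. Replicates could not be compared. Pileups and backgrounds were solved from the fold (with 1 added above and below) and the −log10 p-value, and came out whole within 0.1% for 99.96% of regions in each list.

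Gene spans came from RefSeq (GRCh38.p14; 20037 protein-coding genes, without exons), and starts, strands and upstream sequences from its promoter table. That table covers 30 members and 15843 genes; AARS2, LARS1, VARS1, VARS2 and YARS1 are named only. Marking required an overlap of at least 1 bp. Where several starts were listed, the nearest to the summit was used. Coordinates are 1-based. The members and lists were chosen with earlier results of these data known. Values are given for members marked in both lists, in shNT alone or in neither, and for pairs sharing a region. They are also given for the 6 cytosolic and 6 mitochondrial members with the highest shNIT2 fold. Not every measure is printed for each of these members. Others were named after their values were seen. Distances to starts, length bins, depth scaling, pairs by q, the −log10 q of 10 and the grouping by multisynthetase complex were added after seeing the data. The overlap and pileup steps were tested on simulated data. No test across samples was possible. Python 3.11.15, pandas 2.3.3, numpy 2.4.6, scipy 1.17.1 and matplotlib 3.10.9 were used.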

Additional observations from a re-analysis of the deposited data

How the results depend on the processing

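Of 168 recomputed counts, 104 stayed within 1.5 times the reported count and 64 did not. All counts stayed within it when the margin was 5 kb, when the summit had to lie in the window, and when FARSA with FARSB, GARS1 with KARS1, or the histidine pair were left out. Counts below are given as cytosolic, mitochondrial and all members, unless only some of these moved.

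With no margin around the gene, the members marked in neither list numbered 2, 4 and 6, and 2 cytosolic members were marked in shNT alone. With only 1 kb around each gene end, the shNT list marked 3, 0 and 3 members and both lists 3, 0 and 3. The shNIT2 list alone then marked 14 cytosolic members, shNT alone 0, 0 and 0, and neither list 2, 5 and 7, since gene interiors were left out. At a −log10 q of at least 5, shNIT2 marked 7 mitochondrial members, shNT 3, 1 and 4, both lists 3, 0 and 3, shNT alone 0, 1 and 1, and neither list 3, 8 and 11. With the 14093 strongest regions of each list, shNIT2 marked 6 mitochondrial members, shNT 3, 1 and 4, both lists 3, 0 and 3, shNT alone 0, 1 and 1, and neither list 5, 9 and 14. At a fold of at least 5, shNIT2 marked 10, 4 and 14 members, both lists 5, 0 and 5, shNIT2 alone 5, 4 and 9, and neither list 7, 11 and 18. The shNT list then marked 1 mitochondrial member and 8 in all, with 2 cytosolic and 1 mitochondrial member in shNT alone. Member regions that overlapped the other list numbered 1 in shNIT2 and 1 in shNT at a reciprocal overlap of 50%, and 2 in shNIT2 and 2 in shNT at a −log10 q of at least 5. With the ratio of the median pileups as the depth scale, an alternative chosen after seeing the data, 0 members fell under the lowest shNT pileup, in place of 16. No replicate was left out, since there was 1 library per condition. No paired analysis was possible because each group had 1 H3K14ac library. Depth differed between the lists, and its part in the counts unique to shNIT2 cannot be told apart from the hairpin; gene spans without exons leave places inside genes undefined.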
